A study of Homo sapiens with 4 samples.

Results

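HSP90AB1, AHSA1, HSPH1 and HSPE1 are genes of the HSP90 chaperone machinery, its HSP70-side partners and the mitochondrial chaperonin. They were chosen by symbol from the authors' deposited table of genes up or down after PCAF knock-down, and their probe sets were looked up in the array values. Each symbol had 1 line in that table, so the 4 genes stand on 4 probe sets, of 33297 on the arrays and 759 named in the table. HCT116, an established human colorectal carcinoma line, was grown asynchronously and transfected with an shRNA against PCAF (SH PCAF, 2 arrays) or with a control shRNA (SH Ctrl, 2 arrays). The SH Ctrl cells are labelled wild-type and the SH PCAF cells PCAF knock-down, and no other allele or agent is given for either. Total RNA was hybridised to single-colour Affymetrix arrays, and each value is a log2 probe set signal, so a difference of -1 means that the signal was halved. In its title the series concerns targets of p27, a cyclin-dependent kinase inhibitor.

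HSP90 is an ATP-driven chaperone that completes the folding of protein kinases, hormone receptors and other client proteins, with co-chaperones that load clients and set the speed of its ATP cycle. HSP70 chaperones hand clients to HSP90, and HSP110 proteins such as HSPH1 help HSP70 to exchange its nucleotide. In the mitochondrial matrix, imported proteins fold inside the chaperonin, a barrel of HSPD1 closed by a lid of HSPE1. Many of these genes are under heat shock factor HSF1, which binds heat shock elements, inverted repeats of GAA units, and tumour cells often express them strongly.

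The promoters of the 4 genes, all from the lower side of the authors' table, are shown as a description. The window with heat shock elements can be set beside those without, and a shared cause was not tested. All 4 genes matched the RefSeq promoter table (GRCh38.p14), and the 250 bases before the start site are printed 5′ to 3′ on the strand of the gene. For genes with several RefSeq starts, the window with the most heat shock element matches is printed, and failing any match the window of the most upstream start. Capitals mark heat shock element matches in HSP90AB1 and the E-box in HSPE1.
HSP90AB1, chr6:44247693-44247942, plus strand: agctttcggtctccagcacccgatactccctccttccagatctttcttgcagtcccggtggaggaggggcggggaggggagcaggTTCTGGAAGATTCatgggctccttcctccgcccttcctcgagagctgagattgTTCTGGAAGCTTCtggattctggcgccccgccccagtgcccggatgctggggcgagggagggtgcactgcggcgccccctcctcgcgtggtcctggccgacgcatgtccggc
AHSA1, chr14:77457617-77457866, plus strand: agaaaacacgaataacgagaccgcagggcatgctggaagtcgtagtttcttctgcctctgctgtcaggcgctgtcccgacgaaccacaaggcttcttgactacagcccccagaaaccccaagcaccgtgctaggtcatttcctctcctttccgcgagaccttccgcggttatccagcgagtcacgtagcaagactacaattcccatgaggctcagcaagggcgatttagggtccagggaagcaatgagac
HSPH1, chr13:31162389-31162638, minus strand: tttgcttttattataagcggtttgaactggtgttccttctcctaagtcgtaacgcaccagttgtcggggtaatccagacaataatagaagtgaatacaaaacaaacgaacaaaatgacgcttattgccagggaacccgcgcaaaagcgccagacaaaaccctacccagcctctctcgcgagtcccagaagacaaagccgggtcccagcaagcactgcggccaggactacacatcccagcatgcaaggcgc
HSPE1, chr2:197500129-197500378, plus strand: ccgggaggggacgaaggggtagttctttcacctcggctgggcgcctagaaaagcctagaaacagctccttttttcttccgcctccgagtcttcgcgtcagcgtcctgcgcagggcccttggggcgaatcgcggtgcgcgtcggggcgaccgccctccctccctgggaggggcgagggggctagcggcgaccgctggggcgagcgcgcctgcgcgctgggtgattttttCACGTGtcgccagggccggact

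The motifs were chosen with these sequences and the array results known, and both strands were searched. A heat shock element of 3 units was taken as GAANNTTCNNGAA or TTCNNGAANNTTC, and of 2 units as GAANNTTC or TTCNNGAA, which every element of 3 units also contains. The HSP90AB1 window holds 2 elements of 3 units, TTCTGGAAGATTC from 165 to 153 bases before the start and TTCTGGAAGCTTC from 112 to 100 bases before it. Elements of 3 units stand in 0.441% of the 35116 RefSeq windows of this length, and elements of 2 units in 11.6%. This window belongs to the third of 3 RefSeq starts of HSP90AB1, and the windows of the other starts hold no heat shock element. The arrays do not say which start was used.

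The HSPE1 window holds the E-box CACGTG, a site of MYC family proteins, from 22 to 17 bases before the start, and 6.34% of all windows hold this motif. A GC box (GGGCGG), found in 42.6% of all windows, stands in 4 of the 7 windows of these genes, 1 of HSPE1 and 3 of HSP90AB1. A CCAAT box (CCAAT), found in 32.0% of all windows, stands in none of the 7. The HSPH1 window and those of both AHSA1 starts hold none of these motifs. The matches are a description of the sequence, and a window without one says nothing about the factor.

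**Figure D1:**
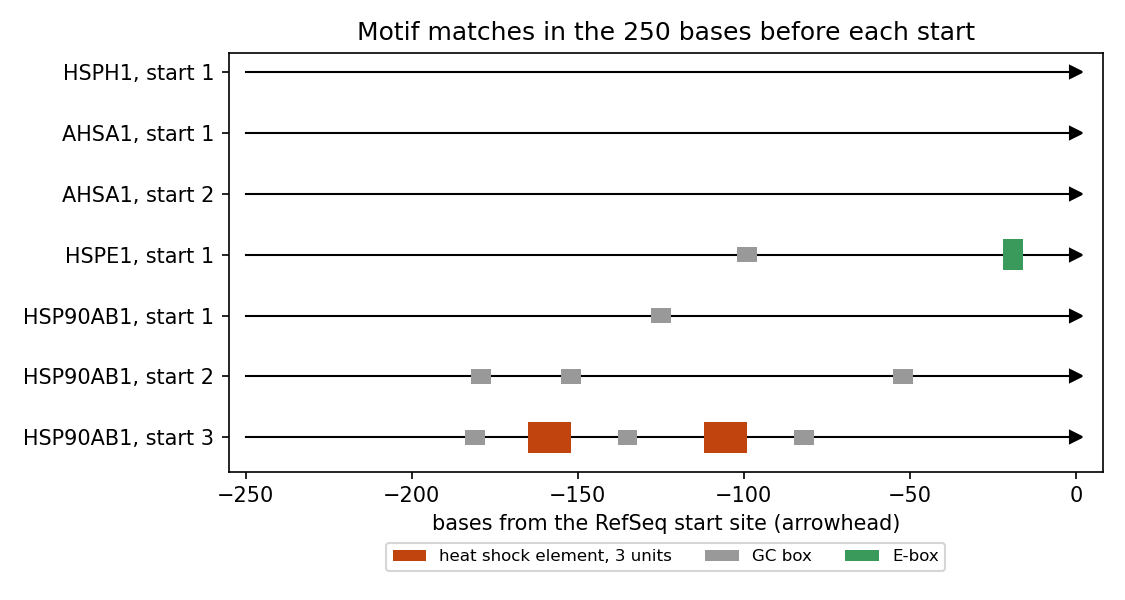
Motif matches in the 250 bases before each of the 7 RefSeq starts of the 4 genes, with bases from the start on the x axis and 1 line for each start. Coloured blocks are matches. Both heat shock elements of 3 units lie before the third start of HSP90AB1, and the E-box lies before HSPE1.

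HSPE1 and HSPD1 lie head to head. The nearer of the 2 RefSeq starts of HSPD1, which encodes the barrel of the same chaperonin, lies 105 bases from that of HSPE1 on the opposite strand, and the windows of these starts share 104 bases. The read-through gene HSPE1-MOB4 starts at the same base as HSPE1. No line of the authors' table names HSPD1, so whether both directions moved on the arrays was not analysed here.

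All 4 genes had lower signals in SH PCAF cells. Their log2 differences ran from -1.25 for HSPH1 to -1.04 for HSPE1, with a median of -1.18, against a median of -0.05 over all 33297 probe sets. As the authors' table listed these genes for their difference on the same 4 arrays, these values describe the genes and are given without a test. In RNA of a whole culture, fewer cells with a high level and less of the RNA per cell cannot be told apart.

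HSP90AB1 encodes the constitutive cytosolic HSP90 beta. Its log2 signals were 9.77 and 9.94 in the SH PCAF arrays and 10.94 and 11.09 in the SH Ctrl arrays. The groups did not overlap, and the lower SH PCAF array differed from the higher SH Ctrl array by -1.31. The mean was 9.86 ± 0.12 in SH PCAF and 11.01 ± 0.10 in SH Ctrl cells (SD, n = 2 each), a log2 difference of -1.16 ± 0.10 (moderated SE) or a signal 2.23-fold lower with the knock-down. Its probe set, 7895585, is 1 of the 4201 with the lowest identifiers, which are numbered almost without gaps and which the files do not describe. They may be control probe sets of the platform, which was not tested, and the name HSP90AB1 for this one rests on the authors' table alone. The RefSeq gene table also lists 6 pseudogenes named after the HSP90AB family, and the files do not say whether the probes tell them apart.

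AHSA1 encodes the co-chaperone that stimulates the ATPase of HSP90. Its log2 signals were 10.09 and 10.18 in the SH PCAF arrays and 11.29 and 11.37 in the SH Ctrl arrays. Both SH PCAF arrays were lower than both SH Ctrl arrays, and single pairs of arrays differed by -1.28 to -1.11. The means of 10.13 ± 0.07 in SH PCAF and 11.33 ± 0.06 in SH Ctrl cells (SD, n = 2 each) differed by -1.19 ± 0.08 (log2, SE), which is a 2.29-fold lower signal. The probe set of AHSA1 is 7975976.

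HSPH1 encodes an HSP110 protein, a nucleotide exchange factor of HSP70 that also keeps unfolded proteins soluble. Its log2 signals were 10.87 and 10.79 in the SH PCAF arrays and 12.15 and 12.02 in the SH Ctrl arrays. The groups were 1.15 apart at their nearest arrays, the widest such gap of the 4 genes. The means of 10.83 ± 0.06 in SH PCAF and 12.08 ± 0.09 in SH Ctrl cells (SD, n = 2 each) differed by -1.25 ± 0.08 (log2, SE), a signal 2.39-fold lower in SH PCAF. The probe set of HSPH1 is 7970864.

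HSPE1 encodes the lid of the mitochondrial chaperonin. Its log2 signals were 9.47 and 9.51 in the SH PCAF arrays and 10.62 and 10.45 in the SH Ctrl arrays. The SH PCAF arrays lay closer to each other than the SH Ctrl arrays, and the groups were 0.94 apart at their nearest arrays. The means of 9.49 ± 0.03 in SH PCAF and 10.53 ± 0.12 in SH Ctrl cells (SD, n = 2 each) differed by -1.04 ± 0.09 (log2, SE), a signal 2.06-fold lower in SH PCAF. The probe set, 8047223, may also pick up the read-through transcript, which begins with HSPE1. RefSeq lists 28 pseudogenes named after HSPE1, and whether the probes avoid them is not given in the sources used here.

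**Figure D2:**
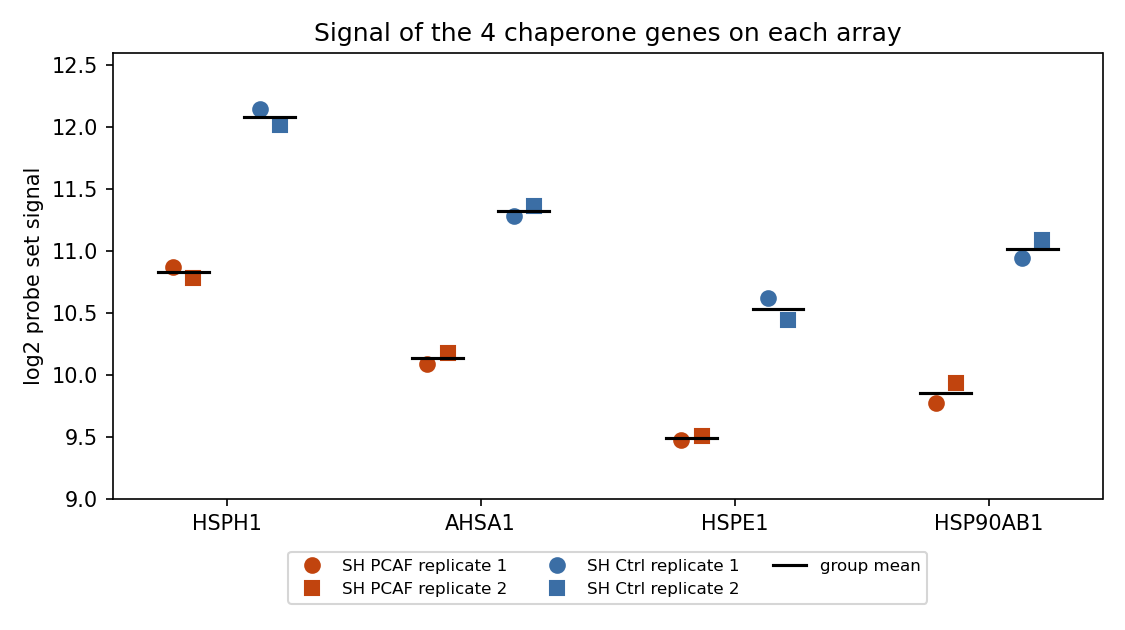
Log2 probe set signal of HSPH1, AHSA1, HSPE1 and HSP90AB1 on each array, SH PCAF left of SH Ctrl, with circles for replicate 1, squares for replicate 2 and a bar at the group mean (n = 2). In each gene both SH PCAF arrays lie below both SH Ctrl arrays, by 0.94 (HSPE1) to 1.15 (HSPH1) at the nearest arrays.

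In all 4 genes both SH PCAF arrays were below both SH Ctrl arrays, as they were in 36.0% of all probe sets. All 4 were also among the 1948 probe sets that limma called lower in SH PCAF at an adjusted p below 0.05, which are 5.85% of those on the arrays. Nothing is read from these counts, since the genes were listed for this difference. Of all probe sets, 167 (0.502%) had a log2 difference of -1 or lower. Counted from the lowest difference on the arrays, HSPH1 stood at place 58, AHSA1 at 76, HSP90AB1 at 84 and HSPE1 at 140.

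**Figure D3:**
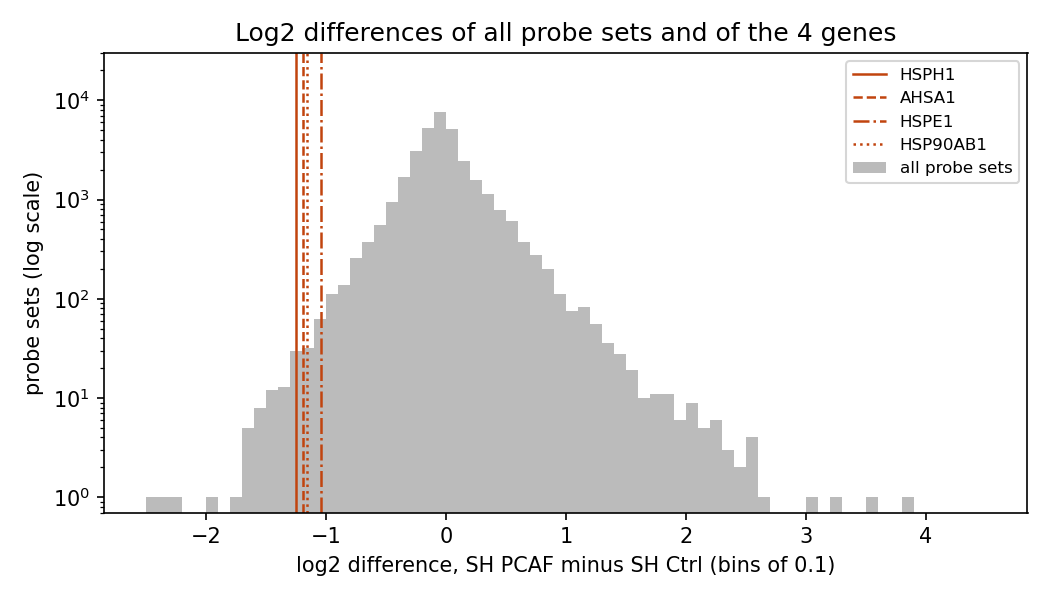
Histogram of the log2 differences (SH PCAF minus SH Ctrl) of all 33297 probe sets in bins of 0.1, with the number of probe sets on a log scale and a vertical line for each of the 4 genes. The lines lie between -1.25 and -1.04, in the left tail, which reaches beyond -2.

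The log2 differences of the 4 genes lay close together. All 4 came from the lower side of the authors' table, where no difference is smaller than 0.70 in size. Probe sets with 1 symbol on that side reach down to -1.72. How close other genes of that side lie to each other was not analysed here. From HSPH1 to HSPE1 the log2 differences spanned 0.21, more than the sum of the SEs of these 2 genes (0.08 and 0.09). Neighbours in the order HSPH1, AHSA1, HSP90AB1 and HSPE1 lay closer to each other than the sum of their SEs. The replicates separated them in another way. HSP90AB1 and AHSA1, the chaperone and the activator of its ATPase, were higher in replicate 2 than in replicate 1 of both groups, whereas HSPH1 was higher in replicate 1 of both. HSPE1 was lower in replicate 1 of SH PCAF and higher in replicate 1 of SH Ctrl. After each gene was centred on its own mean, the root mean square distance over the 4 arrays was 0.04 on the log2 scale between AHSA1 and HSP90AB1, and 0.10 to 0.14 for the other pairs. This distance also holds the difference between the groups, so it is not the same measure as a gap between replicates. The members' own replicate gaps were 0.04 to 0.17, against a median over all probe sets of 0.10 in SH PCAF and 0.09 in SH Ctrl. The replicate orders thus rest on gaps not far from ordinary ones, and nothing is read from them.

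By the same distance, the nearest patterns were found for each gene among the other 710 probe sets with a single symbol in the authors' table. All of these were listed for their difference on the same arrays. The nearest to HSP90AB1 were ZWINT, a kinetochore protein gene (distance 0.03), and FAM111B (0.03). The nearest to AHSA1 were SPP1, which encodes osteopontin (0.02), followed by FOXM1, which drives mitotic gene expression (0.03). ELOB, the elongin B gene, was nearest to HSPH1 at 0.04, with a low-identifier probe set like that of HSP90AB1, followed by GLA, the alpha-galactosidase A gene (0.04). HSPE1 had PRR3 (0.03) and INSIG1, a regulator of sterol synthesis (0.03), as neighbours. The log2 differences of these 8 genes ran from -1.28 for GLA to -1.003 for PRR3. With 4 arrays in 2 groups, a short distance rests mainly on a like difference between the groups.

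Other chaperone genes in the authors' table went both ways. The 12 chaperone lists, drawn up with earlier results of these data known, held 176 genes, of which 12 were in the table, the 4 members and 8 others. Of these 8, limma called 2 lower (background 5.85%) and 6 higher (background 7.05%), with a median log2 difference of 0.80. The median over all probe sets of the table, 522 of them up and 237 down, was also 0.80. All 8 were listed for this difference, so their calls are not independent evidence of it, and the other 164 genes of the lists have no value here.

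Both lower genes have roles close to the members. STIP1, the HOP co-chaperone that links HSP70 to HSP90, had log2 signals of 11.63 and 11.67 in SH PCAF and 12.42 and 12.41 in SH Ctrl arrays. Its groups did not overlap, and its difference was -0.77 ± 0.07 (SE; limma, adjusted p = 0.0108). HSPA4L, another HSP110 family gene, had 10.04 and 10.25 in SH PCAF and 10.94 and 10.83 in SH Ctrl arrays, a difference of -0.74 ± 0.10 (SE; limma, adjusted p = 0.0194). Both had smaller differences than the 4 genes and lay just inside the smallest difference of the table, 0.70. Of the 28 genes in the heat shock response list the table names 6, these 2 and the 4 members, and all 6 are on its lower side, where 31.2% of its probe sets stand. As the members were taken from that side and the list was drawn up with results known, nothing is read from this count.

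Of the 6 chaperone genes that rose, 3 act in the ER, 1 in mitochondria and 2 in the cytosol. CLGN, the ER lectin chaperone calmegin, rose by 1.86 ± 0.12 (log2, SE; limma, adjusted p = 0.00765), with signals of 8.17 and 7.96 in SH PCAF and 6.33 and 6.08 in SH Ctrl arrays. DNAJB9, an ER J-domain protein, rose by 1.12 ± 0.07, and HSPA13, an HSP70 relative of the ER, by 1.06 ± 0.07 (limma, adjusted p = 0.00756 for both). These were the 3 genes in the table of the 22 in the ER chaperone list. CDC37L1, related to the kinase-loading HSP90 co-chaperone CDC37, was the 1 co-chaperone gene that rose, with signals of 8.59 and 8.83 in SH PCAF and 7.98 and 7.69 in SH Ctrl arrays. Its difference of 0.87 ± 0.14 (SE; limma, adjusted p = 0.0260) opposed those of AHSA1 and STIP1 in the same list of 34 genes.

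BAG1, a nucleotide exchange factor of HSP70 and thus of the same activity as HSPH1, rose by 0.72 ± 0.10 (log2, SE; limma, adjusted p = 0.0191). LONP1, the mitochondrial matrix protease, rose by 0.73 ± 0.07 (log2, SE; limma, adjusted p = 0.0112), where HSPE1, the other gene of that list of 22 in the table, was lower. LONP1 had signals of 10.42 and 10.40 in SH PCAF and 9.70 and 9.65 in SH Ctrl arrays. The lists of the TRiC chaperonin, prefoldin, small heat shock proteins and heat shock factors had no gene in the table. HSP90AB1 was the 1 named gene of the 4 of the HSP90 family. The calls of all 8 other chaperone genes depended on which arrays were kept, as set out below for all probe sets.

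**Figure D4:**
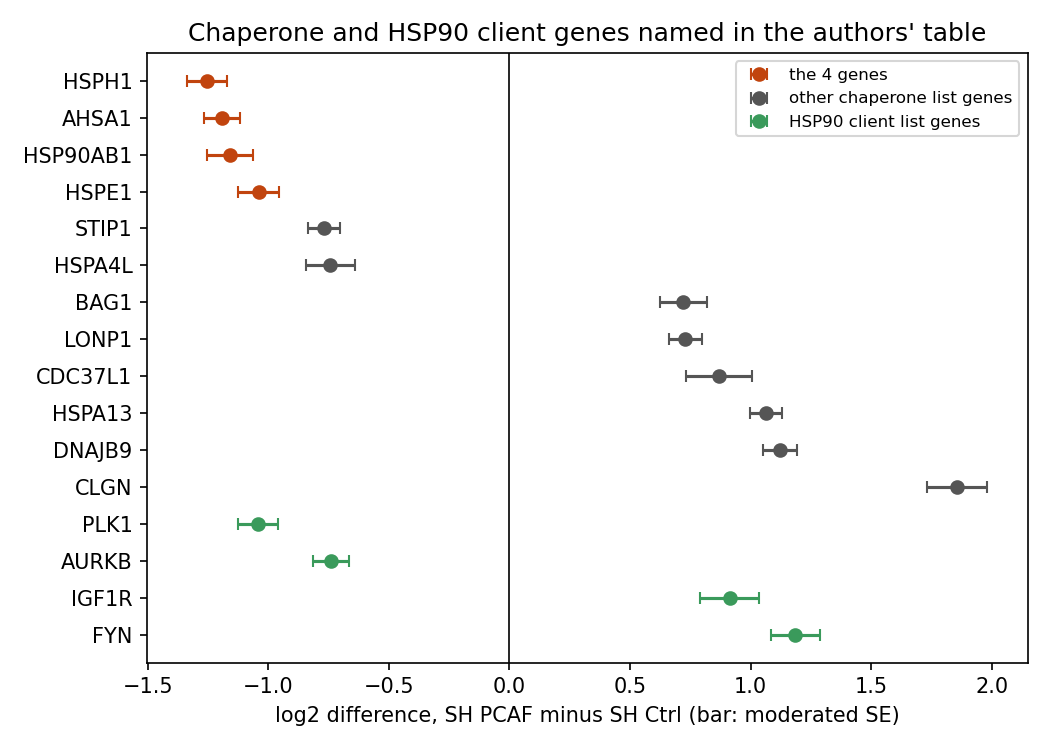
Log2 differences (SH PCAF minus SH Ctrl, x axis) of the 4 genes, of the 8 other chaperone list genes and of the 4 HSP90 client list genes in the authors' table, with the moderated SE as bars. The 4 genes lie at -1.25 to -1.04, STIP1 and HSPA4L at -0.77 and -0.74, and the 6 other chaperone genes at 0.72 to 1.86.

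Genes whose proteins are clients of HSP90 were also split. Of 35 listed client genes, 4 were in the table, and limma called 2 lower (background 5.85%) and 2 higher (background 7.05%). All 4 were listed for this difference, so their calls are not independent evidence of it. Their median log2 difference of 0.09 describes no gene, since no difference in the table is smaller than 0.70 in size. The mitotic kinases PLK1 and AURKB were lower, by -1.04 ± 0.08 and -0.74 ± 0.08 (log2 difference, SE; limma, adjusted p = 0.00998 and 0.0125). The SRC family kinase FYN was higher by 1.19 ± 0.10 and the receptor IGF1R by 0.91 ± 0.12 (limma, adjusted p = 0.0107 and 0.0189). The calls of all 4 client genes also depended on which arrays were kept, as did those of all probe sets, set out below. Their transcripts were measured here, not the folding or amount of the proteins.

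With 1 array left out, a group is a single array that is assumed to vary like the 2 arrays of the other group, and 1 residual degree of freedom is left. Without SH Ctrl replicate 1 or replicate 2, where the spread comes from the SH PCAF arrays alone, limma called no probe set, the lowest adjusted p being 0.0767 and 0.0839, with 6848 and 6849 probe sets at an unadjusted p below 0.05. Without SH PCAF replicate 1, limma called 706 probe sets lower and 1227 higher, and without SH PCAF replicate 2 it called 1142 lower and 1221 higher. The log2 differences of the 4 genes stayed between -1.32 and -0.95 whichever array was left out. No line of the authors' table names KAT2B, the current symbol of PCAF, so the target of the shRNA is not among the falls listed there. Its probe set is not named either, so the knock-down has no check here. Of 11 colorectal epithelial markers, the table names CDH1, 1.10 ± 0.13 higher in SH PCAF (log2, SE; limma, adjusted p = 0.0154), and of 14 markers of other cell types it names none, so the identity of the culture was not checked further.

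The authors' deposited table gives HSPH1 at 2.68, AHSA1 at 2.55, HSP90AB1 at 2.48 and HSPE1 at 2.23 in its column headed fold change. For these genes that column is 2.13 to 2.14 times the size of the log2 difference, so it holds a scaled log2 difference and is not to be set against the folds given here. For p, the authors' deposited table has 0.003127 for AHSA1 at the low end and 0.043436 for HSPE1 at the high end.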

How the data were processed

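Each of the 4 single-colour arrays held RNA of HCT116 cells and was grouped by its sample title. The deposited matrix gives a log2 signal for each of 33297 probe sets, the scale being read from the range of 3.62 to 14.21. Affymetrix Expression Console and limma stand in the submitters' processing notes, with no account of the normalization or the probe annotation. Probe sets were named through the authors' deposited table, which has a p-value per line, from a test it does not name, and a score headed fold change. Its 852 symbols were updated through RefSeq (GRCh38.p14), where 688 were current and 122 were the synonym of 1 gene.

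SH PCAF minus SH Ctrl was fitted with limma 3.58.1 (R 4.3.3, lmFit and eBayes, no covariate or filter), with Benjamini-Hochberg adjustment across the whole matrix at 0.05, and the fit was tested on simulated data. Folds are 2 to the power of the log2 difference, SH Ctrl over SH PCAF for falls. The number of arrays limits the precision. No label says that replicates came from separate cultures, and p-values then measure the spread between these samples, possibly technical. Members and lists were chosen with earlier results of these data known. All list genes in the table and, for each member, the 2 genes nearest in pattern are named, and HSPD1 and HSPE1-MOB4 for their position. Alternatives covered scaling, filters, the replicate block, variance prior, array weights, threshold and arrays left out.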

Additional observations from a re-analysis of the deposited data

How the results depend on the processing

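The log2 differences of HSPH1, AHSA1, HSPE1 and HSP90AB1 kept their sign under every alternative that gave them a value. Leaving out an array could not change a sign, since both SH PCAF arrays were below both SH Ctrl arrays in each gene. The filters, replicate block, variance prior and array weights left the differences themselves unchanged, so only the scaling could have changed a sign. Median centring shifts all probe sets of an array alike, so it moved the 4 differences by the same amount. They became -1.19 for HSPH1, -1.13 for AHSA1, -1.10 for HSP90AB1 and -0.98 for HSPE1. Only for AHSA1, whose replicate SD of 0.06 is the smallest of the 4, was this shift larger than the replicate SD. With 1 array left out in turn, HSPH1 ranged from -1.32 to -1.19, AHSA1 from -1.24 to -1.14, HSPE1 from -1.13 to -0.95 and HSP90AB1 from -1.24 to -1.08. HSP90AB1 has no value with the low identifiers left out, since its probe set is among them. With arrays left out, the probe sets called by limma ranged from 0 to 1227 higher and from 0 to 1142 lower, and the other chaperone genes called lower from 0 to 2. The 0 counts are those without an SH Ctrl array, where the spread comes from the SH PCAF arrays alone. At an adjusted p below 0.01, 213 probe sets were higher and 75 lower, and 0 of the other chaperone genes were lower. Of the 4 genes, HSPH1 and AHSA1 kept their call at this threshold, while HSP90AB1 and HSPE1 lay just above it (limma, adjusted p = 0.0103 for both). As the genes were listed for this difference, nothing is read from this split. The share of calls that were higher was 54.6% without further scaling and 68.0% with median centring (3012 higher, 1419 lower). With the replicate block, 2454 probe sets were higher and 2130 lower, and the calls of all list genes stood. The labels tie the replicate numbers to no shared culture, and the differences between replicates correlated at 0.25 between groups. Whether a probe set was above background was not measured.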
